A study of Rattus norvegicus with 2 samples.

Results

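miR-221 and miR-222 are a pair of microRNAs (miRNAs, short RNAs that repress messenger RNAs) made from 1 primary transcript. Their data were taken from the array probes named exactly rno-miR-221 or rno-miR-222, which gave 2 of the 350 rat miRNAs on the array, 4 of its 938 miRNA probes and 40 of its 7000 miRNA spots. Each miRNA had 2 probes, and each probe was printed as 10 spots. No probe for the opposite (star) strand of either miRNA was on the array.

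The study compared squamous cell carcinoma of the tongue with normal tongue in male Sprague-Dawley rats that were 6 to 7 weeks old at the start. The 20 rats of the tumour arm received the carcinogen 4NQO at 0.02 g/l, and the 20 rats of the control arm received distilled water without it. Tissue of both arms was taken at the end of week 36, and RNA came from 7 tumours and 7 normal tongues. The data are 2 Agilent 1-colour arrays on 1 slide, a tumour-labelled and a normal-labelled one, and whether either held RNA of a single animal or of a pool is not given. Each group thus had 1 array and no replicate, no test between the groups was made, and all errors below are spreads over the spots of an array.

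miRNAs guide the silencing machinery mainly through their seed, bases 2 to 8, which pairs with sites in target messenger RNAs. miR-221 and miR-222 carry the same seed and repress the cell cycle inhibitors Cdkn1b (p27) and Cdkn1c (p57) and the receptor Kit. They are known from endothelium and vascular smooth muscle, and in human carcinomas, those of the mouth among them, they are often reported as raised.

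The mature strands are shown first because the shared seed, in capitals, defines the pair. They are RefSeq sequences of the rat assembly GRCr8, where both lie on the plus strand of chromosome X, miR-221-3p at chrX:6023246-6023268 and miR-222-3p at chrX:6022682-6022702. The array's design names the older build rn4, to which these coordinates do not apply.
miR-221-3p: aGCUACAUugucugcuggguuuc
miR-222-3p: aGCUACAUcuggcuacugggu
The first 8 bases are identical, and of the 724 rat mature miRNAs in the RefSeq table these 2 alone hold this seed. Beyond it the longest run they share has 6 bases.

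The hairpins, shown because the miRNAs of the pair are cut from neighbouring stretches of 1 transcript, lie 458 bases apart, Mir222 at chrX:6022621-6022723 and Mir221 at chrX:6023182-6023290. Capitals mark the 3p arm, the strand that the array measured.
Mir222 hairpin: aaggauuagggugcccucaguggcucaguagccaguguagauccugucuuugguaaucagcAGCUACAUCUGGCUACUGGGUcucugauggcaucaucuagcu
Mir221 hairpin: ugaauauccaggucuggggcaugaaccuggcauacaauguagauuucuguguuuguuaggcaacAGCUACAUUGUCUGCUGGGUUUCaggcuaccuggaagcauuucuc

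The 4 probes are DNA and pair with the 3′ part of their miRNA. They are shown because the probes of the pair differ in length, and capitals mark the bases that pair with the seed.
Probe of 20 bases, miR-221: gaaacccagcagacaATGTA
Probe of 19 bases, miR-221: gaaacccagcagacaATGT
Probe of 14 bases, miR-222: acccagtagccagA
Probe of 13 bases, miR-222: acccagtagccag
The probe of 20 bases pairs with bases 4 to 23 of miR-221-3p and that of 19 bases with bases 5 to 23. The probe of 14 bases pairs with bases 8 to 21 of miR-222-3p and that of 13 bases with bases 9 to 21. The longest stretch of any of the 4 probes that could pair with the other miRNA of the pair had 6 bases. Of the 7 bases of the seed, the miR-221 probes pair with 5 and 4, and the miR-222 probes with 1 and 0.

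Signals are the intensity values that the scanner software gave after background subtraction, and a spot it marked as an outlier was left out. The software also marked spots as well above background. The dimmest spot so marked was at 19.1 intensity units on the tumour-labelled array and 17.3 on the normal-labelled array, and no unmarked spot was brighter. A probe was called detected where more than 50% of its kept spots were marked. That held for 175 probes of 104 miRNAs on the tumour-labelled array and 149 probes of 88 miRNAs on the normal-labelled array. Negative control spots averaged 0.614 ± 3.04 intensity units on the tumour-labelled array (SD, 655 spots) and 1.67 ± 3.02 on the normal-labelled array (SD, 642 spots). No spot was saturated. miR-31 and miR-21, often raised in human oral carcinoma, were 15.2-fold and 9.60-fold lower on the tumour-labelled array after the scaling described below. Their log2 ratios were -3.93 and -3.26, or -3.005 and -2.34 without scaling. Both directions run against that array's label, as far as knowledge of human carcinoma carries to rats. The arrays are therefore called by their labels, and a direction holds only as far as these do.

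miR-221 was detected on both arrays through its probe of 20 bases, near the limit on the tumour-labelled array. On the tumour-labelled array its 10 kept spots had a lowest value of 12.3, a median of 19.3 and a highest value of 21.6 intensity units, and 6 of them were well above background. On the normal-labelled array the 9 kept spots had a lowest value of 46.1, a median of 52.3 and a highest value of 58.1 intensity units, and all 9 were well above background. The spot ranges did not overlap, and the tumour-labelled array was the lower one. This probe was the dimmest of the 175 detected on the tumour-labelled array, and its median stood only just over that array's limit.

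The probe of 19 bases showed the same order. On the tumour-labelled array its 9 kept spots ran from 4.72 through a median of 9.25 to 14.7 intensity units, with 0 well above background. Its 9 kept spots on the normal-labelled array ran from 20.8 through a median of 25.0 to 33.1, and all 9 were well above background. These ranges did not overlap either. The probe was thus detected on the normal-labelled array alone.

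miR-222 was not detected on either array by the same rule, although its signal was higher on the normal-labelled array. For the probe of 14 bases the 9 kept spots on the tumour-labelled array had a lowest value of -1.05, a median of 1.82 and a highest value of 4.32 intensity units, and 0 were well above background. On the normal-labelled array its 9 kept spots had a lowest value of 8.13, a median of 12.7 and a highest value of 20.1, and 1 was well above background. The spots of the tumour-labelled array lay among the negative controls, of which 33.7% were at or above the probe's mean. On the normal-labelled array 0 of 642 negative control spots reached the probe's mean, and 5 of its 9 spots exceeded the brightest of them, 11.8.

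The probe of 13 bases gave the same order close to the background. On the tumour-labelled array its 8 kept spots ran from -5.47 through a median of -2.81 to -1.51 intensity units, all below 0. Its 10 kept spots on the normal-labelled array ran from 2.30 through a median of 7.00 to 9.65, and 0 were well above background. Of the single negative control spots, 88.7% on the tumour-labelled array and 5.45% on the normal-labelled array were at or above this probe's mean.

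**Figure D1:**
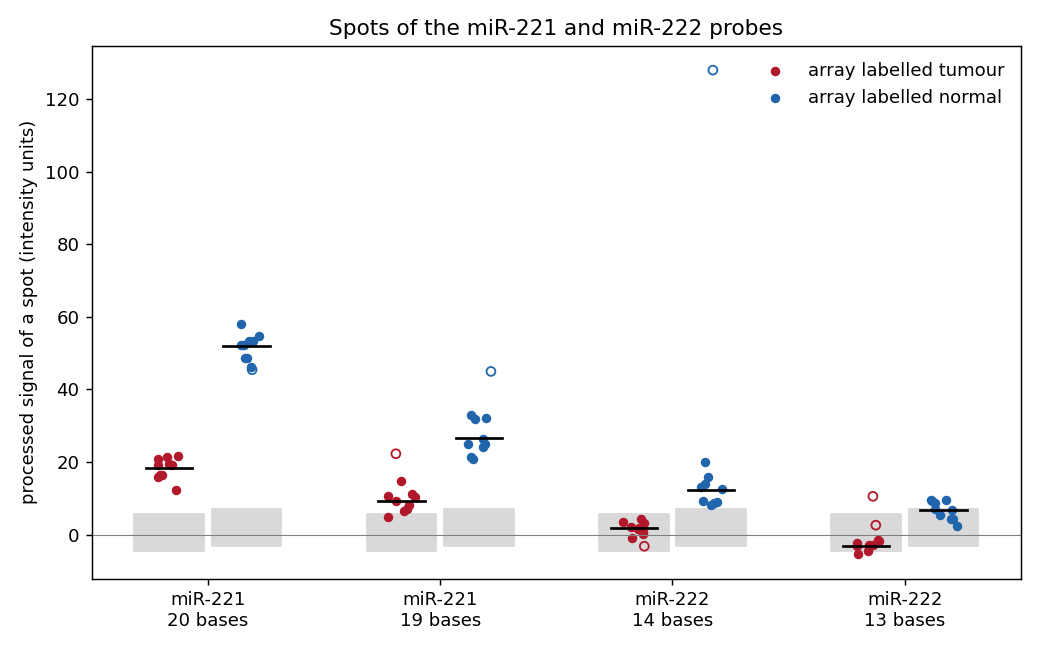
Processed signal (intensity units, vertical axis) of every spot of the 4 probes, tumour-labelled array in red and normal-labelled array in blue. Filled points are kept spots, open points are spots marked as outliers, black bars are means of kept spots and grey boxes span the 5th to 95th percentile of that array's negative control spots. Kept spots of the tumour-labelled array lie below those of the normal-labelled array for all 4 probes, and those of miR-222 on the tumour-labelled array lie inside the grey box or below it.

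In mean signal all 4 probes were lower on the tumour-labelled array. The probe of 20 bases averaged 18.3 ± 2.96 intensity units on the tumour-labelled array and 51.9 ± 3.65 on the normal-labelled array (SD, 10 and 9 spots). The means of the probe of 19 bases were 9.16 ± 2.98 on the tumour-labelled array and 26.6 ± 4.65 on the normal-labelled array (SD, 9 spots each). For miR-222, the probe of 14 bases averaged 1.80 ± 1.70 on the tumour-labelled array and 12.3 ± 3.99 on the normal-labelled array (SD, 9 spots each).

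The probe of 13 bases averaged -3.04 ± 1.33 on the tumour-labelled array and 6.76 ± 2.58 on the normal-labelled array (SD, 8 and 10 spots). Kept spots of the tumour-labelled array all lay below those of the normal-labelled array for 4 of the 4 probes, which held for 2.67% of the 938 probes on the array. The opposite, all spots higher on the tumour-labelled array, held for 14.6%. The median local background under the kept spots of these probes was 24 to 25 intensity units on the tumour-labelled array and 21 to 24 on the normal-labelled array.

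A ratio could be formed for miR-221 only. The 140 probes that both arrays detected set the scale, and signals were divided by their 75th percentile, 525.6 intensity units on the tumour-labelled array and 277.5 on the normal-labelled array. miR-221 was then 5.39-fold lower on the tumour-labelled array, a log2 ratio of -2.43 (spot SE 0.08, 1 probe). Without this scaling it was 2.84-fold lower, a log2 ratio of -1.51. For the probe of 19 bases, which the tumour-labelled array did not detect, the tumour-labelled array was at least 2.76-fold lower after scaling and at least 1.46-fold lower without it. These bounds set the mean on the normal-labelled array against the dimmest detected signal of the tumour-labelled array, which is that of the probe of 20 bases.

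Among the 85 miRNAs with a ratio, the tumour-labelled array was at least 2-fold lower for 19 (22.4%) and at least 2-fold higher for 11 (12.9%), and the median log2 ratio was -0.46. miR-221 had the third lowest log2 ratio, at rank 3 of 85. Without scaling 5 miRNAs (5.88%) were at least 2-fold lower, miR-221 among them, against 28 (32.9%) higher by that size, and the median turned to 0.46. These calls are a rule of size and not a test.

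**Figure D2:**
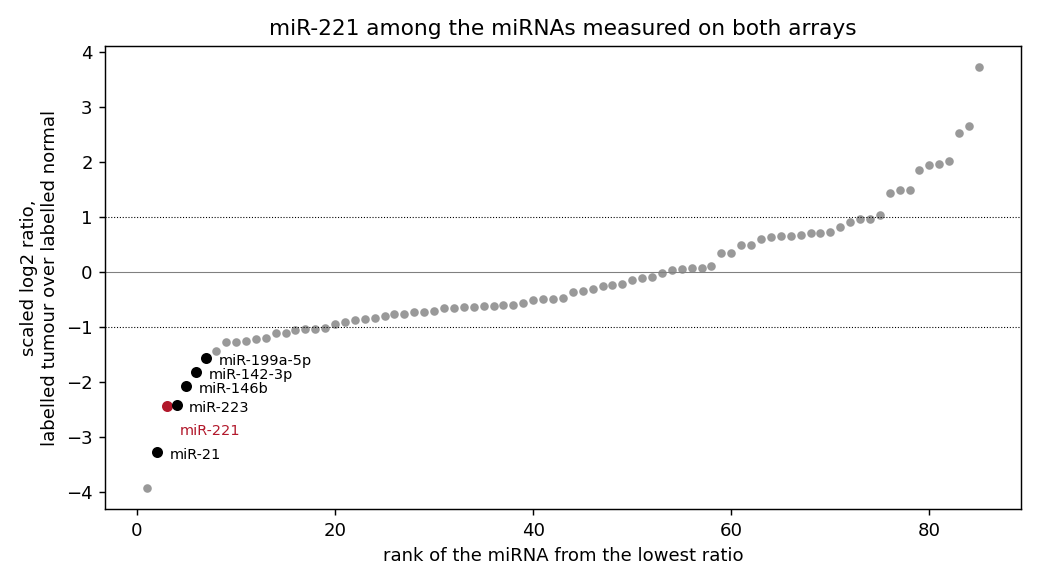
Scaled log2 ratios, tumour-labelled over normal-labelled (vertical axis), of the 85 miRNAs measured on both arrays, by rank from the lowest. miR-221 is in red at -2.43, the 5 miRNAs nearest to it in ratio are in black, and dotted lines mark 2-fold.

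The 5 miRNAs nearest to miR-221 in log2 ratio, a likeness over 2 arrays only, were miR-223, miR-146b, miR-142-3p, miR-21 and miR-199a-5p. miR-223, a miRNA of myeloid cells, was closest at -2.41, which differed from miR-221 by 0.02, less than the spot SE of miR-221. miR-146b, induced by inflammatory signals, was at -2.07, and miR-142-3p, found in all blood cell lineages, at -1.82. miR-21, which is raised in many carcinomas, was at -3.26, and the mesenchymal miR-199a-5p was at -1.56. Without scaling miR-142-3p and miR-199a-5p were at -0.90 and -0.63, under 2-fold.

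For miR-222 no fold is given, since both arrays were below the limit for both of its probes. Its difference between the arrays was set against the 754 probes that neither array detected. The mean signal of the tumour-labelled array minus that of the normal-labelled array was -10.5 intensity units for the probe of 14 bases (spot SE 1.45) and -9.80 for that of 13 bases (spot SE 0.943). Over the 754 probes the median difference was 0.18, and the 5th and 95th percentiles were -3.53 and 5.26. The miR-222 probes ranked 2 and 3 from the lowest difference within this set. Probes that an array detected are not in the set. Some of those differed by more, the miR-221 probe of 19 bases by -17.5 intensity units. The miR-222 probes were among 7 of the 754 probes, 0.928%, whose kept spots on the tumour-labelled array all lay below those on the normal-labelled array, while 2.39% had all of them above.

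**Figure D3:**
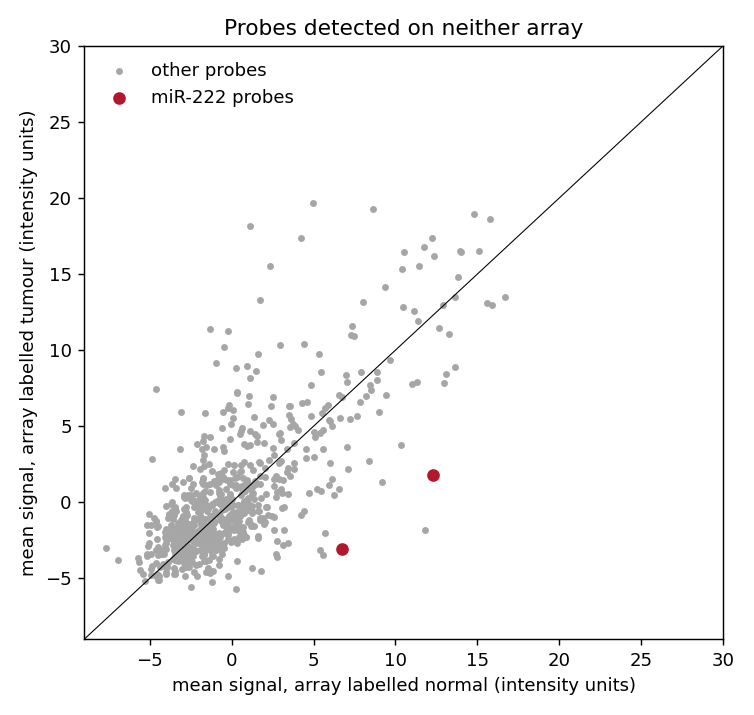
Mean signal of the 754 probes detected on neither array, tumour-labelled array on the vertical and normal-labelled array on the horizontal axis, both in intensity units, with the line of equal signal. The miR-222 probes, in red, lie far below the line, at 1.80 and -3.04 on the tumour-labelled array against 12.3 and 6.76 on the normal-labelled array.

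The software's own summary per miRNA gave the same order. The total gene signal of miR-221 was 18.2 on the tumour-labelled array (software error 3.83) and 52.1 on the normal-labelled array (5.07), and the software called it detected on both. The total gene signal of miR-222 was -0.83 on the tumour-labelled array (software error 3.58) and 12.6 on the normal-labelled array (3.39), and the software called it detected on the normal-labelled array alone. miR-222 was 1 of 6 miRNAs with that pattern (1.71% of the 350), and the 1 of those 6 whose total gene signal on the tumour-labelled array was under 1. The deposited value table sets such values to 1, so it lists miR-222 at 1 on the tumour-labelled array and 12.6 on the normal-labelled array. The ratio of these entries, a log2 value of -3.66, is set by the substituted 1 and is not a measured fold.

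The software also gave each spot a looser mark, for a signal above 0 with a p-value under 0.01 against its background. On the tumour-labelled array 9 of 9 and 10 of 10 kept spots of the miR-221 probes carried it, against 1 of 9 and 0 of 8 for miR-222. On the normal-labelled array all 9 kept spots of each miR-221 probe carried it, as did 9 of 9 and 9 of 10 for miR-222. Of the negative control spots, 14.8% on the tumour-labelled array and 26.01% on the normal-labelled array carried it too.

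Probe length differed between the miRNAs of the pair and went with detection over the whole array. Of the 254 probes of 10 to 14 bases, the class of both miR-222 probes, 3.15% were detected on the tumour-labelled array and 3.54% on the normal-labelled array. Of the 197 probes of 19 to 20 bases, the class of both miR-221 probes, 26.4% were detected on the tumour-labelled array and 22.8% on the normal-labelled array. The part of probe length in the missing detection of miR-222 was not tested, and the 2 miRNAs' signals cannot be set against each other as amounts of RNA.

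As products of 1 transcript the 2 miRNAs can be asked to go alike between the arrays. In direction they did, although neither array detected miR-222. Without scaling, all kept spots were lower on the tumour-labelled array for 4 of the 4 probes, against 2.67% of all 938 probes. The 2 probes of each miRNA differ by 1 base, so the 4 probes are not separate readings. In size the 2 miRNAs could not be compared, because miR-222 has no ratio. Among 31 groups of miRNAs commonly held to be co-transcribed, with at least 2 members found on the array under exactly the listed name, 20 had at least 2 members measured on both arrays. In these the log2 ratios of 1 group spread over a median of 0.36, from 0.07 for miR-29a and miR-29b to 1.75 for miR-206 and miR-133b, and 17 of the 20 spread over less than 1. All members of a group had the same sign in 15 of the 20 groups, and in 16 without scaling. Over all 85 miRNAs with a ratio, 53 were below 0, or 20 without scaling, so unrelated miRNAs can share a sign too. Some miRNAs, such as miR-24 and miR-29b, belong to more than 1 group, so the groups are not separate cases. The array lists miR-30b as miR-30b-5p, and counting it (0.65) with its partner miR-30d (0.49) makes 32 groups, 21 with at least 2 measured members. The spread was then under 1 in 18 of the 21, and all members had the same sign in 16, or in 17 without scaling.

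The miR-221 and miR-222 pair was 1 of 7 groups with a single measured member, and in 6 of these 7 at least 1 partner was detected on neither array. miR-143, a miRNA of smooth muscle whose partner miR-145 was detected on neither array, is another such case, with a log2 ratio of 0.82. So is the erythroid miR-451 at 1.04, with miR-144 as its partner. A co-transcribed partner below the limit of detection was thus not particular to miR-222. Nor was it particular to partners, since 243 of all 350 miRNAs were detected on neither array.

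**Figure D4:**
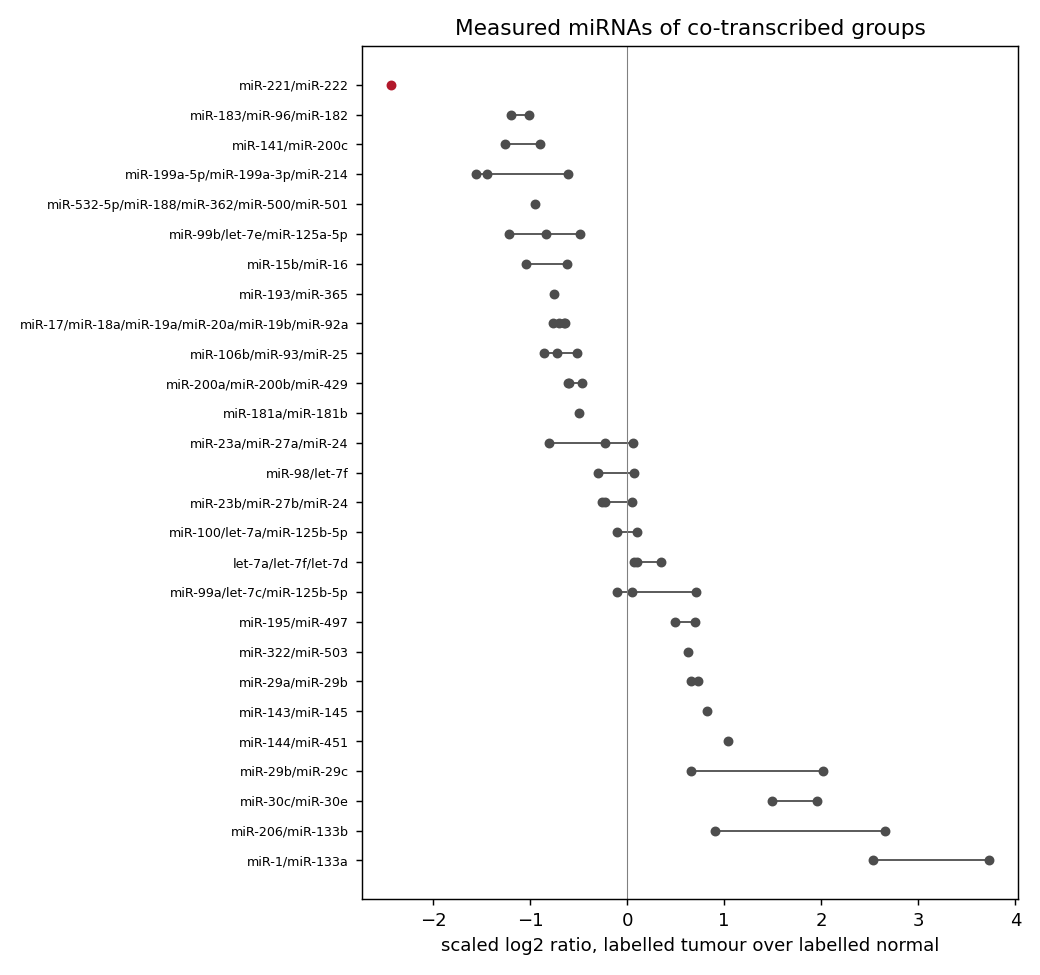
Scaled log2 ratios, tumour-labelled over normal-labelled (horizontal axis), of the measured miRNAs in each co-transcribed group with at least 2 members under the listed name and at least 1 measured (rows). Points are miRNAs and lines join the members of a group; miR-221, in red, stands alone in its row at -2.43, the lowest point of the plot.

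Other miRNAs that belong beside the pair were taken from a list. Of the miRNAs often raised in oral squamous cell carcinoma, 17 were on the array and 11 were measured, miR-221 included. All 11 had log2 ratios below 0, against 53 of all 85. Of the 11, 9 were at least 2-fold lower on the tumour-labelled array, against 22.4% over all 85. The median of the 11 was -1.20, against -0.46 over all 85. miR-24 and miR-181a, at -0.22 and -0.50, turned positive without scaling. Without scaling 5 of the 11 were at least 2-fold lower, and these were the only 5 of all 85 (5.88%). They were miR-31 (-3.005), miR-21 (-2.34), miR-221 (-1.51), miR-223 (-1.49) and miR-146b (-1.15). The median of the 11 was then -0.28, against 0.46 over all 85. miR-222 was 1 of 5 members, out of 17, detected on neither array, against 243 of all 350 miRNAs.

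Markers of other cell types differed between the arrays as well, and in bulk RNA fewer cells of a type and less RNA per cell cannot be told apart. The summed total gene signal of 4 skeletal muscle miRNAs was 27.5% of all miRNA signal on the tumour-labelled array and 4.27% on the normal-labelled array. All 4 had positive log2 ratios with a median of 2.59, and 3 were at least 2-fold higher, against 12.9% over all 85. For 7 epithelial miRNAs the share was 5.92% on the tumour-labelled array and 9.74% on the normal-labelled array. All 7 were measured and below 0, against 53 of all 85 miRNAs with a ratio. Of the 7, 2 were at least 2-fold lower, against 22.4% over all 85, and their median was -0.61. That median was 0.31 without scaling. For 4 leukocyte miRNAs the share was 0.506% on the tumour-labelled array and 1.29% on the normal-labelled array, with 3 measured and miR-142-5p detected on neither array. These 3 went both ways: miR-223 and miR-142-3p were at -2.41 and -1.82, while miR-150, a miRNA of mature lymphocytes, was 2.69-fold higher on the tumour-labelled array, at 1.43 (2.35 without scaling).

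Endothelium and smooth muscle are where the pair is best known. The endothelial miR-126 was at 0.68, with miR-126* detected on neither array and a share of 1.15% on the tumour-labelled array and 0.674% on the normal-labelled array. For 5 smooth muscle and stromal miRNAs the share was 2.14% on the tumour-labelled array and 2.71% on the normal-labelled array, with 4 measured, a median of -1.02 (-0.10 without scaling) and miR-145 detected on neither array. The smooth muscle miR-143 was at 0.82 (1.74 without scaling), opposite in sign to miR-221. The stromal miR-199a-5p and miR-214 were at -1.56 and -1.44, but under 2-fold without scaling, at -0.63 and -0.52, and miR-199a-3p was at -0.60 (0.32 without scaling). For 2 red blood cell miRNAs the share was 0.296% on the tumour-labelled array and 0.130% on the normal-labelled array. For 3 nerve miRNAs it was 0.174% on the tumour-labelled array and 0.0597% on the normal-labelled array, with miR-124 and miR-9 detected on neither array and miR-128 on the tumour-labelled array alone. The part of these cell types in the values of miR-221 and miR-222 was not tested.

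miR-221 kept a ratio of at least 2-fold lower in the 15 of 17 other settings that gave it a value, which ran from -2.68 to -1.33 on the log2 scale. These 15 are not separate checks. Total gene signal and the deposited value table gave the same ratio, -2.65, and the brightest probe alone repeats the reported one. The 2 settings without a value were those that asked for all spots above the limit or used even-numbered spots alone, in which the tumour-labelled array no longer detected it.

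**Figure D5:**
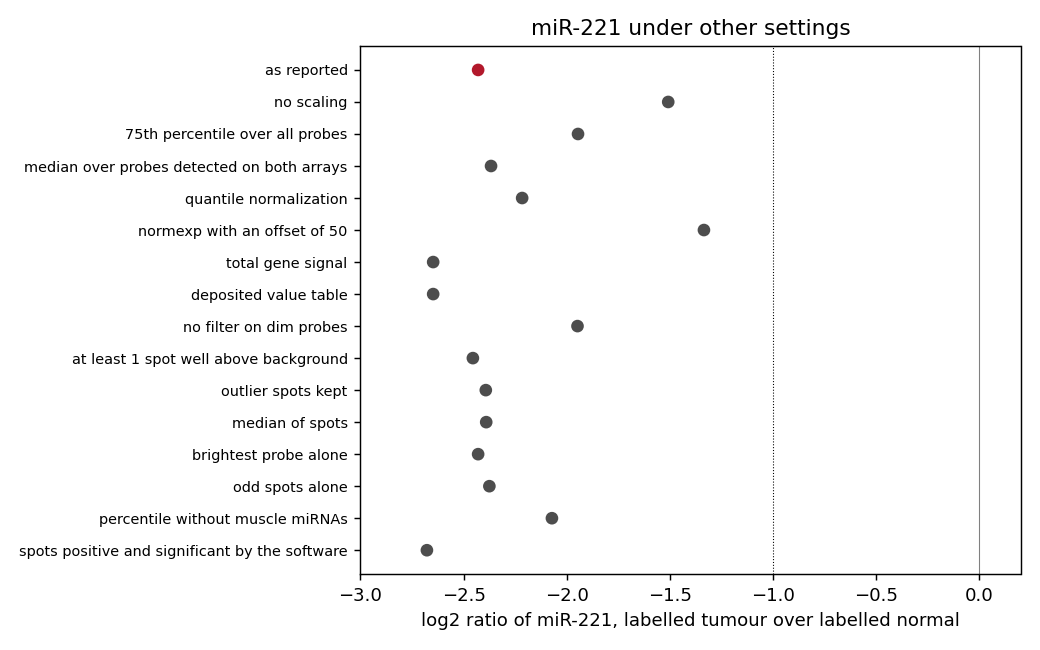
Log2 ratio of miR-221, tumour-labelled over normal-labelled (horizontal axis), as reported (red) and under each other setting that gave a value (rows). All points lie left of the dotted line at 2-fold lower, with the highest at -1.33 under normexp with an offset of 50.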

How the data were processed

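RNA labelled with Cy3 was read on 2 arrays. Per the file headers, the authors' deposited intensity values come from the scanner software Agilent Feature Extraction, version 10.5.1.1, after background subtraction and spatial detrending, with no normalization between arrays. The deposited files also hold a p-value per spot against background. The deposited value table equals the total gene signal, an intensity, with values under 1 set to 1. Kept spots were averaged per probe, scaled to the 75th percentile of the probes that both arrays detected, floored at the array's dimmest detected probe and turned to log2 values. Calls are 2-fold or more. Python 3.11.15, pandas 2.3.3, R 4.3.3 and limma 3.58.1 (for normexp) were used, and the steps were tested on simulated data. The number of arrays limits the precision. Named miRNAs are the members, the 5 nearest in ratio, co-transcribed groups and list members, from general knowledge. Members and lists were chosen with earlier results of these data known. Probes nearest in signal and the most similar probes of other miRNAs were not used in the text. A list of miRNAs with shared targets is not reported here. The alternatives were other scalings, background corrections, signals, filters, spot and probe summaries.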

Additional observations from a re-analysis of the deposited data

How the results depend on the processing

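The log2 ratio of miR-221 stayed negative and at least 2-fold in the 15 alternatives that gave it a value, not all of them separate checks. It was -1.51 without scaling, -1.94 with the 75th percentile over all probes, -1.33 with normexp, -1.95 with no filter on dim probes and, chosen after seeing the data, -2.07 with muscle miRNAs left out of the percentile. With all spots required above the limit or with even spots alone, 0 of the 4 probes were detected on the tumour-labelled array, against 1. With the software's looser mark, also chosen after seeing the data, 2 probes were detected on the tumour-labelled array and 4 on the normal-labelled array, against 1 and 2. Over all 938 probes that mark detected 304 on the tumour-labelled array and 268 on the normal-labelled array, against 175 and 149. miR-222 gained a measured ratio under none of the 17 alternatives, so its difference from miR-221 has no value. With no filter both of its levels are the arrays' floors, and in the other alternatives the tumour-labelled array did not detect it. Under the looser mark both of its probes were detected on the normal-labelled array alone, which held for 21 of all 938 probes. The counts of miRNAs at least 2-fold lower and higher were 5 and 28 without scaling, 7 and 23 with the percentile over all probes, 8 and 3 with normexp, 8 and 21 without muscle miRNAs, and 51 and 19 with the looser mark, against 19 and 11. These counts are out of 85 miRNAs with a ratio, but out of 141 with the looser mark. The causes of these moves between settings were not tested. By construction the looser mark admits more probes, and the median log2 ratio under it was -0.70, against -0.46. Matching miR-30b through its arm name, chosen after seeing the data, gave 21 co-transcribed groups with at least 2 measured members against 20. No paired analysis was possible because each group has 1 array. Signal over background limits miR-222 on both arrays and miR-221 on the tumour-labelled array.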

Other observations

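Among the probes that neither array detected, some probes of the star strand of miR-21 stood next to those of miR-222. This was seen only after ranking them. A probe of 14 bases averaged -3.45 intensity units on the tumour-labelled array and 5.59 on the normal-labelled array. For a probe of 15 bases the means were 1.35 on the tumour-labelled array and 9.16 on the normal-labelled array. These differences ranked 4 and 6 from the lowest of 754 probes, just after those of miR-222 at 2 and 3. The other probes of this star strand differed less. They averaged -3.16 and -2.59 on the tumour-labelled array, against -0.98 and -2.14 on the normal-labelled array. The lowest difference was that of a miR-101a* probe, at -1.85 on the tumour-labelled array and 11.8 on the normal-labelled array. The other miR-101a* probes went the other way and were higher on the tumour-labelled array. They averaged -3.96, -0.62 and -1.55 there, against -4.64, -1.95 and -4.48 on the normal-labelled array.

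Of the outlier spots left out, 1 spot of the miR-222 probe of 14 bases on the normal-labelled array read 128.0 intensity units, while the 9 kept spots of that probe there reached at most 20.1.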
